A study of Rattus norvegicus with 112 samples.

Results

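The metabotropic glutamate receptors are the G protein-coupled receptors for glutamate, and 7 of their genes, Grm2 to Grm8, were read on 112 Affymetrix arrays of cultured rat cortical neurons. All probe sets that the platform's annotation paired with 1 of these genes were taken. They made up 7 of the 720 genes named on the array and 9 of its 1263 probe sets. Grm7 had 3 probe sets and each of the other genes had 1.

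Metabotropic receptors fall into groups by sequence and coupling. Group I, here Grm5 (mGluR5), couples through Gq to phospholipase C, inositol trisphosphate and calcium release, and lies mostly on the postsynaptic side. Group II (Grm2 and Grm3) and group III (Grm4, Grm6, Grm7 and Grm8) couple through Gi/o and lower cyclic AMP. Many of them sit on axon terminals, where they limit transmitter release, and Grm3 and Grm5 are also made by astrocytes.

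The labels give the tissue as cerebral cortex and the cells as primary cortical neurons; the strain and age of the animals are not given in the sources used here. In the continuous experiment cultures were kept in 1 mM NMDA, an agonist of the ionotropic NMDA receptor, and harvested after 10, 30, 60, 180 or 360 min, with 3 arrays per group and 3 controls. In the pulse experiment 1 mM NMDA was washed away after 10, 30 or 60 min and harvest followed 24 h later, with 4 cultures per group and 4 controls. A second pulse set had 1 array per group and so no replicates. The crossed experiment set 10 uM nicotine for 18 h, 1 mM NMDA for 60 min, and both, against control, with 3 arrays each. The washed-out experiment used 10 uM nicotine for 18 h, a 30 min pulse of 1 mM NMDA, or both, each followed by 24 h without drug. It had 5 arrays per group, and the same 20 samples were hybridized in a first run and in a repeat run. Nicotine (10 uM) for 15 min with harvest 45 min later, 2 uM 4R (a non-competitive nicotinic antagonist, per the labels) for 18 h, and the same 4R exposure washed out for 24 h before harvest each had 3 treated and 3 control arrays. Values are array signals on the authors' linear scale. Changes are differences on the log2 scale after a small offset, each with limma's standard error (SE), and a probe set passed when its Benjamini-Hochberg adjusted p, 2-sided over the 884 probe sets tested in that contrast, was under 0.05.

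As a check that NMDA acted, Fos (X03347cds_g_at), an immediate early gene, was read in the continuous experiment. It was between 1278 and 2477 on the controls and between 5776 and 16334 after 60 min of NMDA. After 10 min the replicates read 1585, 2378 and 3581, and after 360 min 23618, 3749 and 25126. The untreated controls of the 15 min nicotine run read 8657, 7264 and 11741, inside the range after 60 min of NMDA. Neurons were represented by 11 of 16 listed markers, astrocytes by 5 of 8, oligodendrocytes by 5 of 7, microglia by 1 of 7 and endothelial or meningeal cells by 0 of 9. The summed signal of the astrocyte markers ran from 41569 to 62050 on the continuous controls, and Gfap and Aqp4, which define that cell type, are not among the named probe sets. In bulk RNA fewer cells of a type and less RNA per cell cannot be told apart. Of the arrays in the runs tested, 10 had a median correlation over 4 median absolute deviations below their run's median. They are called here arrays that stand apart. In the continuous experiment they are replicates 2 and 3 at 10 min and replicate 3 at 360 min. In the pulse experiment they are culture 3 at 10 min and culture 4 at 60 min. In the crossed experiment they are control 2 and NMDA replicate 2, with median correlations of 0.894 and 0.923. Control 3 of the 15 min nicotine run, at 0.958, is the mildest case. Controls 3 and 4 of the washed-out repeat run had median correlations of -0.023 and 0.506. In the first washed-out run, replicate 5 with nicotine (0.912) and replicate 5 with both drugs (0.915) also met this rule. They were kept in the values given for that run. The ratio of the 3' to the 5' GAPDH probe set, a measure of RNA integrity or of cDNA length, ran from 1.13 to 12.34 over all arrays.

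No metabotropic receptor passed the test when all arrays were fitted with equal weight and without pairing. The 23 contrasts gave 154 values for these probe sets, 0 of them past the threshold by limma and 6 (3.9%) with an unadjusted p under 0.05, against 6.22% over all probe sets tested. The largest difference in signal was at 1 Grm7 probe set after 360 min of NMDA. It passed with replicates paired, with array weights and without the arrays that stand apart, and not with median centring or quantile normalization. Grm3 was below its own control on 15 of 15 arrays of continuous NMDA without passing at any time. After NMDA pulses Grm3, Grm5 and Grm7 D16817_at were below the controls of their cultures on 10 of 12 arrays. Grm4 was below on 9, Grm6 on 8, Grm7 D16817_g_at on 7 and Grm2 on 3. Grm7 X96790_at, too dim to test, was below on 1. The median over the 884 probe sets tested was 7 of 12, and the share at each count was not taken. Grm4 and Grm6 did not pass in any fit, and Grm8 was too dim to test.

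**Figure D1:**
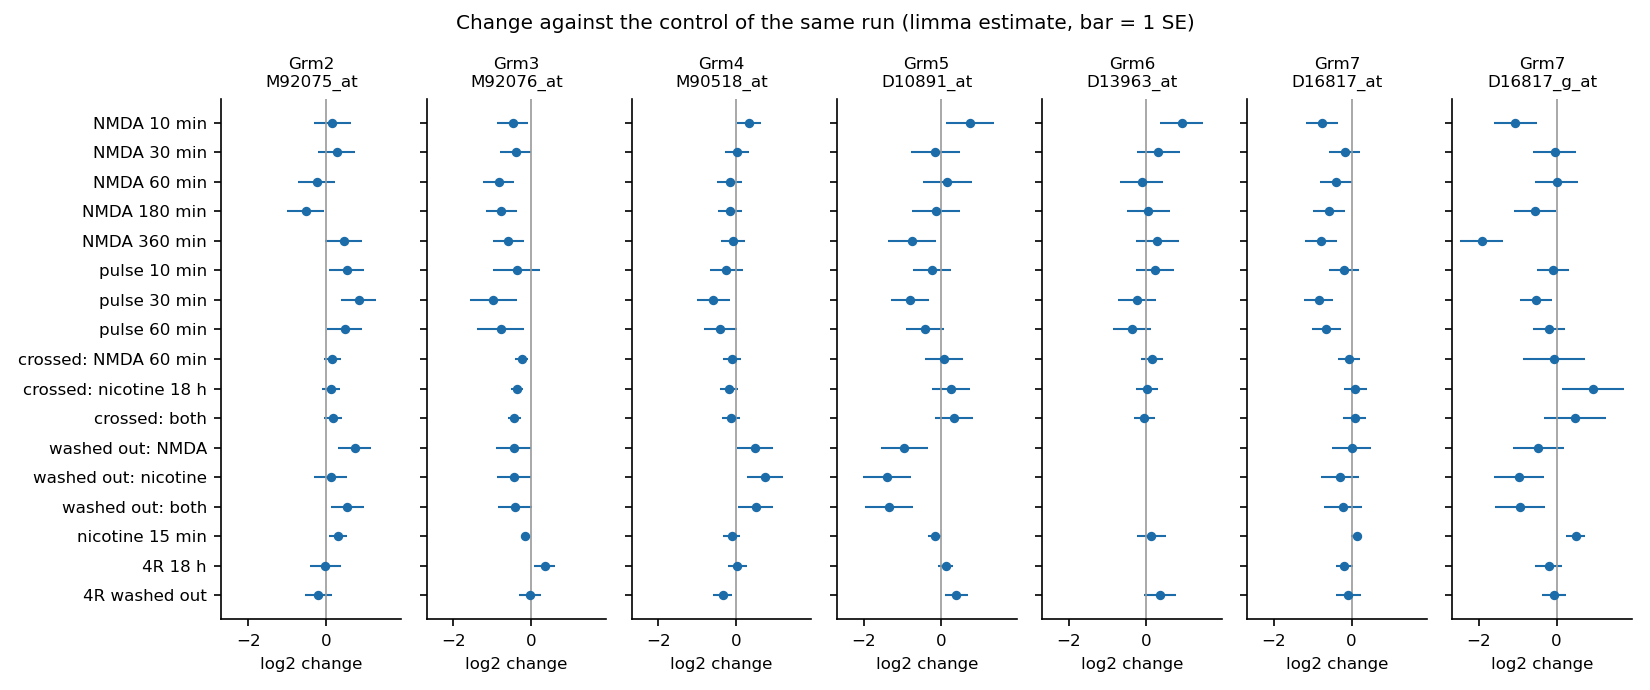
Change of the 7 tested probe sets of the metabotropic receptors against the control of the same run, on the log2 scale, with 1 SE of the limma fit; each row is a treated group and each panel a probe set. The lowest point is Grm7 D16817_g_at after 360 min of NMDA at -1.93, and most points of Grm3 lie left of 0.

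The test did call other probe sets in the same fits, which gives the background for these counts. In the continuous experiment it called 0% of 884 at 10, 30 and 360 min, 0.679% at 60 min and 0.452% at 180 min. In the pulse experiment it called 2.26%, 1.36% and 1.58% at 10, 30 and 60 min. In the crossed experiment it called 0.905% for NMDA, 0% for nicotine, 1.02% for both, 1.02% for NMDA within nicotine, and 0% for nicotine within NMDA and for the interaction. In the washed-out repeat run it called 0.226% for NMDA and for both and 0% for nicotine, for the comparisons of both with either drug and for the interaction. For nicotine over 15 min and for 4R with and without washing it called 0%. At an unadjusted p under 0.05, 63, 16 and 73 probe sets stood at 10, 30 and 360 min of continuous NMDA, 29 after nicotine for 15 min, and 20 and 14 after 4R without and with washing. In the crossed experiment 40 stood for nicotine, 14 for nicotine within NMDA and 16 for the interaction. In the washed-out repeat run the counts were 187 for nicotine, 40 and 4 for both drugs against nicotine and against NMDA, and 33 for the interaction.

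Grm5, the phospholipase C-coupled receptor of group I, did not pass in any contrast. Its control signal was 1496 ± 546 (SD, n = 3) in the continuous experiment and 1370 ± 389 (SD, n = 4) in the pulse experiment. After 10 min of continuous NMDA the 3 arrays read 7175, 1102 and 1759, and after 360 min 764, 258 and 2382, against controls of 2078, 994 and 1416. A single array was far above the controls at 10 min and another far below them at 360 min, and both of these, replicate 2 and replicate 3, are arrays that stand apart. Without the arrays that stand apart the difference at 360 min went from -0.76 (SE 0.62) to -0.07 (SE 0.42). In the pulse experiment Grm5 was at -0.24, -0.80 and -0.42 on the log2 scale after 10, 30 and 60 min, each with an SE of 0.49. On 10 of 12 pulsed arrays it was below the control of the culture, where the median over the 884 probe sets was 7. The adjusted p of Grm5 by limma was 0.999 at 30 min.

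In the washed-out repeat run Grm5 was at -1.40 on the log2 scale (SE 0.61, adjusted p = 0.216 by limma) in the nicotine group, and with both drugs it was at -1.35 (SE 0.61, adjusted p = 0.222). Controls 3 and 4 of that run read 3335 and 5132 against 1026, 564 and 546 on the other controls. In the first run of the same samples those controls read 539 and 420. Without the pair the differences were -0.41 (SE 0.56) and -0.35 (SE 0.56), and in the first run they were -0.16 (SE 0.37) and 0.18 (SE 0.37). The crossed nicotine value of Grm5 also turned in sign, without passing: it was 0.25 (SE 0.49) with control 2, which read 338 beside 1486 and 2055, and -0.48 (SE 0.22) without the arrays that stand apart.

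Among the group II receptors, Grm3 lay below its controls through the whole course of continuous NMDA. Controls 2, 3 and 4 read 5077, 3726 and 6835. After 10 min the same replicates read 3203, 2588 and 5764, and after 30 min 3809, 2424 and 6052. All 6 of these arrays were below the control of the same number, although the groups overlapped.

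After 60 min the replicates of Grm3 read 2898, 1907 and 4003, after 180 min 2509, 3377 and 3053, and after 360 min 2576, 2554 and 5622. The 180 min arrays all lay below the lowest control. In all, 15 of 15 treated arrays were below the control of the same number, a pattern that 3 of the 884 probe sets tested (0.339%) had, while the median over those 884 was 8 of 15 arrays. The 5 times share 3 controls, so these are not 15 independent comparisons. The differences were -0.47, -0.39, -0.83, -0.76 and -0.59 on the log2 scale, each with an SE of 0.40, and none passed by limma (adjusted p from 0.839 to 1). With replicates paired the SE fell to 0.24 and the adjusted p at 60 min was 0.239.

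**Figure D2:**
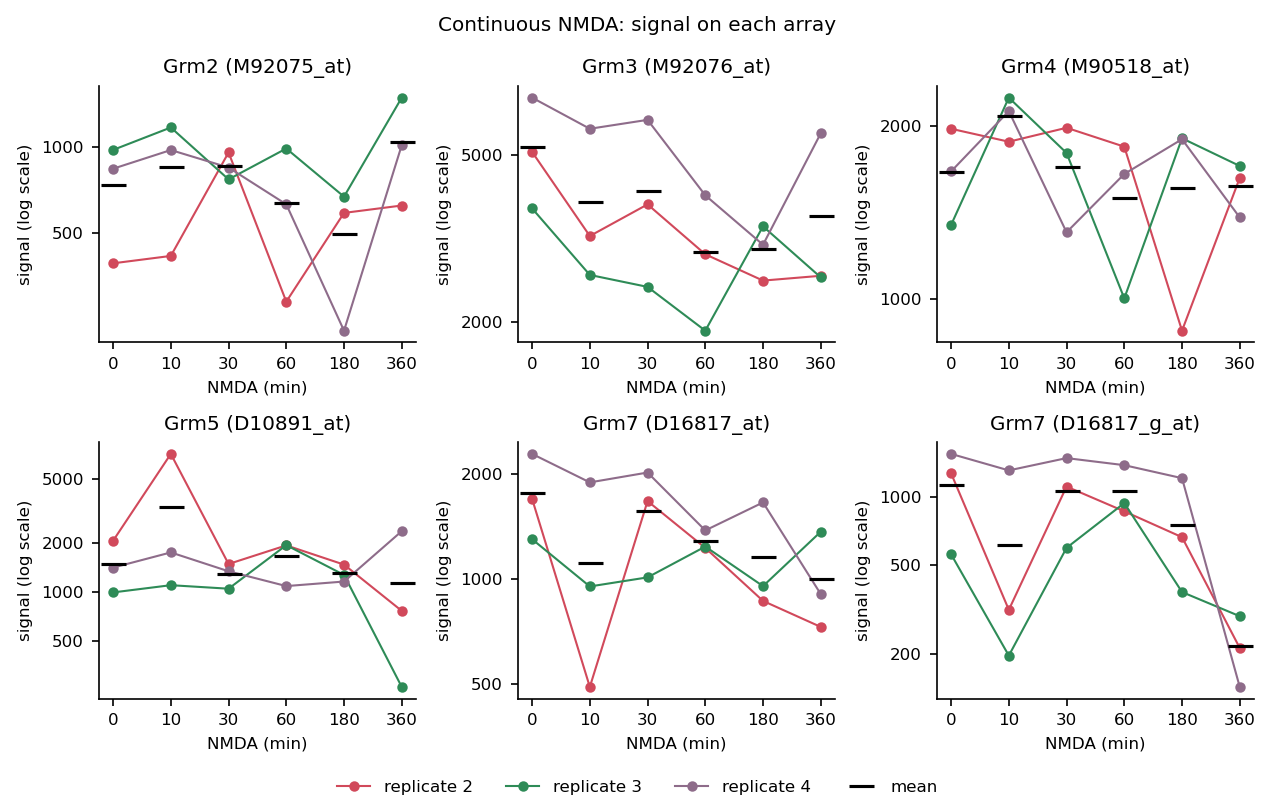
Signal (log axis) of 6 probe sets on each array of the continuous NMDA experiment against time in NMDA (min, not to scale), with lines joining arrays of the same replicate number and a bar for the mean of each group. Grm3 lies below its own control at each time in each replicate, and Grm7 D16817_g_at reads 142 to 294 at 360 min against 556 to 1562 in the controls.

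After NMDA pulses Grm3 was lower in 10 of 12 arrays than in the control of the same culture, where the median over the 884 probe sets was 7 of 12. Control cultures 1 to 4 read 2701, 3827, 3675 and 4747. After a 30 min pulse they read 1064, 1127, 3122 and 3045, and after a 60 min pulse 1129, 830, 3345 and 6000. Cultures 1 and 2 lay far below every control, and cultures 3 and 4 within or above the control range.

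Within cultures the difference of Grm3 after the 30 min pulse was -1.29, -1.71, -0.23 and -0.63. After the 10 min pulse it was -0.92 and -1.23 in cultures 1 and 2, and 0.73 and -0.07 in cultures 3 and 4. The arrays above their own control were culture 3 at 10 min and culture 4 at 60 min, which are the arrays of this experiment that stand apart, with GAPDH ratios of 2.61 and 12.34 against 1.36 to 1.75 on the controls. A repeat array of culture 4 at 60 min read 4144 in place of 6000.

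The pulse differences of Grm3 in the fit were -0.37, -0.97 and -0.78 (SE 0.60 each) at 10, 30 and 60 min, with adjusted p of 0.954, 0.999 and 0.963 by limma. With cultures paired and without the arrays that stand apart they were -0.97 (SE 0.27, adjusted p = 0.0531) at 30 min and -1.07 (SE 0.29, adjusted p = 0.0587) at 60 min, which did not pass. In the second pulse set Grm3 read 4469 in the control and 1513, 1155 and 1394 after 10, 30 and 60 min. That set has no replicate check, and 37.4% of the probe sets tested were below the control on all 3 of its pulsed arrays.

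**Figure D3:**
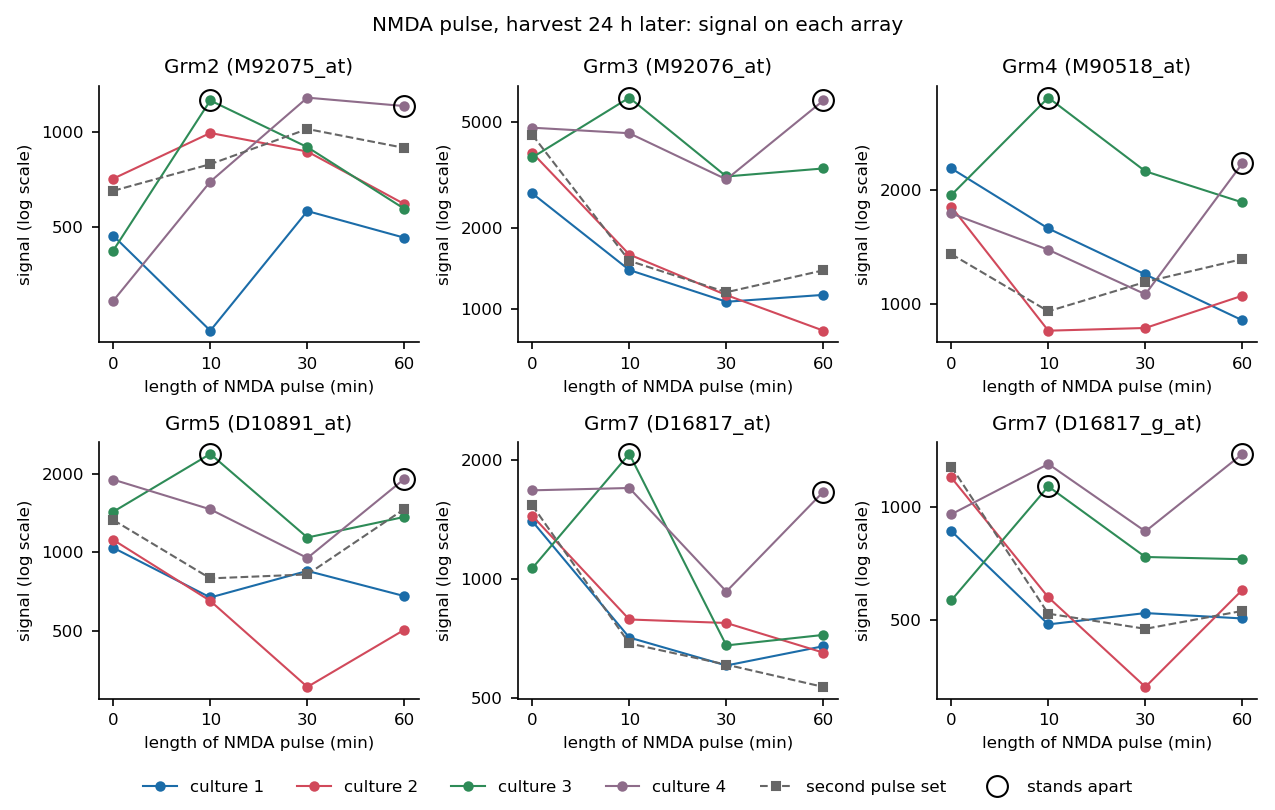
Signal (log axis) of 6 probe sets on each array of the pulse experiment against the length of the NMDA pulse (min, not to scale), with solid lines for the 4 cultures, a dashed line for the second pulse set and circles around the arrays that stand apart. Grm7 D16817_at reads 603 to 929 after the 30 min pulse, below each of the controls at 1064 to 1678.

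Grm3 signals were also low with nicotine in the crossed experiment. The controls read 8173, 6745 and 7378, the nicotine arrays 6145, 5452 and 5702, and the arrays with both drugs 5614, 6153 and 4799. All nicotine-treated arrays lay below the lowest control, while the NMDA arrays (5459, 6411 and 7018) overlapped the controls. That lowest control, at 6745, is an array that stands apart. The differences were -0.36 (SE 0.16, adjusted p = 0.716), -0.43 (SE 0.16, adjusted p = 0.651) and -0.24 (SE 0.16, adjusted p = 0.972), so none passed by limma. Without the arrays that stand apart the nicotine value was -0.43 (SE 0.18) and the NMDA value -0.32 (SE 0.20). Neither group then overlapped the controls, but this left 2 NMDA arrays against 2 controls. In that comparison Grm4 (-0.22, SE 0.27), Grm5 (-0.41, SE 0.25) and Grm6 (0.30, SE 0.34) also separated, while Grm2 and Grm7 overlapped. With nicotine, 3 arrays against 2 controls, Grm5 (-0.48, SE 0.22) separated too. Separation in groups this small was thus not particular to Grm3. How many probe sets of other genes separated in this way was not counted. The astrocyte marker sum on the crossed controls ran from 50099 to 70582.

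Grm3 was not lower after the NMDA pulse in the first run of the washed-out experiment. In the first washed-out run it read 1358, 1707, 1728, 1138 and 1306 on the controls and 2473, 2194, 1919, 732 and 1532 after the NMDA pulse, a difference of 0.19 (SE 0.29). The groups overlapped. In the repeat run the difference was -0.45 (SE 0.44) with controls 3 and 4, which read 8266 and 3638, and 0.32 (SE 0.34) without them. That experiment used a 30 min pulse and 24 h of recovery, as did the 30 min group of the pulse experiment. The runs were scaled separately, and the difference between them was not tested. Washed-out nicotine gave 0.13 (SE 0.29) for Grm3 in the first run. In the repeat run it gave -0.44 (SE 0.44), and 0.33 (SE 0.34) without controls 3 and 4. Nicotine for 15 min gave -0.15 (SE 0.12), 4R for 18 h 0.35 (SE 0.26), and 4R after washing -0.02 (SE 0.28).

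Grm2, the other group II receptor and mostly an autoreceptor of axon terminals, lay on the opposite side after NMDA pulses, above its own control on 9 of 12 arrays. It was below on 3, where the median over the 884 probe sets was 7 of 12 below. Its controls read 469, 710, 421 and 292, and after the 30 min pulse cultures 1 to 4 read 561, 865, 893 and 1280. Each culture was higher than its own control, by 0.23, 0.26, 0.98 and 1.92, although the groups overlapped. The fit gave 0.54, 0.85 and 0.49 (SE 0.45 each) at 10, 30 and 60 min, with adjusted p of 0.787, 0.999 and 0.963. In the second pulse set Grm2 read 650 in the control and 789, 1019 and 888 after the pulses. In continuous NMDA it ran from -0.52 (SE 0.48) at 180 min to 0.46 (SE 0.48) at 360 min.

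After washing, the 5 NMDA arrays of the repeat run read 1216, 1098, 646, 600 and 476 for Grm2 and the controls 220, 313, 272, 1733 and 389. All NMDA arrays were above 4 of the 5 controls and below control 4. The difference was 0.74 (SE 0.43, adjusted p = 0.338 by limma), and 1.19 (SE 0.33, adjusted p = 0.0673) without controls 3 and 4. In the first run the NMDA samples read 1319, 1130, 730, 633 and 444, close to their repeat values, while the controls read 581, 673, 593, 906 and 605. The difference there was 0.24 (SE 0.24). Between the hybridizations the NMDA samples of Grm2 thus kept similar signals and 4 of the 5 controls read lower in the repeat.

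Grm7, a group III receptor of the presynaptic active zone, was the member whose difference passed in some fits, so its promoter is shown first. RefSeq's table for build GRCr8 held promoters of 4 of the 7 genes (Grm5, Grm6, Grm7 and Grm8). The 250 bases before the Grm7 start lie at chr4:145286476-145286725 on the plus strand. They hold 2 GC boxes (GGGCGG on either strand), shown in capitals.
Grm7: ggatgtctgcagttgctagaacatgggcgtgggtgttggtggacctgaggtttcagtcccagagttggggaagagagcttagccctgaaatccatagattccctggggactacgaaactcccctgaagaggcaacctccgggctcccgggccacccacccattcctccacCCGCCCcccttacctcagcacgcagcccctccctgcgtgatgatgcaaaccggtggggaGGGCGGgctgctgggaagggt
GC boxes were present in 30.5% of the 33469 promoters of this length. The same window held no cyclic AMP response element (TGACGTCA, in 1.59% of promoters), no core TGACG of that element (18.2%), no AP-1 motif (TGANTCA, 6.34%) and no EGR motif (GCGTGGGCG, 0.478%), searched on both strands. The windows of Grm5, Grm6 and Grm8 held none of the 5 motifs. A match describes letters and not binding, and the arrays measured no binding.

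Grm7 gave the largest difference of the family. On probe set D16817_g_at controls 2, 3 and 4 of the continuous experiment read 1279, 556 and 1562. After 60 min of NMDA the replicates read 865, 942 and 1391, after 180 min 663, 377 and 1217, and after 360 min 212, 294 and 142. The 360 min arrays lay well below the lowest control, and the 60 min arrays overlapped the controls.

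Earlier, the replicates read 314, 196 and 1318 after 10 min and 1116, 594 and 1496 after 30 min, so replicates 2 and 3 were below all controls at 10 min and none was at 30 min.

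The difference of this Grm7 probe set was -1.06 (SE 0.55) at 10 min, -0.05 (SE 0.55) at 30 min, 0.00 (SE 0.55) at 60 min, -0.56 (SE 0.55) at 180 min and -1.93 (SE 0.55, 95% interval -3.10 to -0.77) at 360 min. The signal thus did not go down steadily with time. Replicates 2 and 3 at 10 min stand apart. Replicate 4 alone gave 0.31 (SE 0.63) against all controls and -0.23 against its own control. The difference at 360 min had an adjusted p of 0.228 by limma. With replicates paired it passed (-1.93, SE 0.42, adjusted p = 0.0281), beside 1.13% of probe sets called in that fit; 9 of those 10 rose, so Grm7 was the 1 that fell. It also passed without the arrays that stand apart (-2.14, SE 0.50, adjusted p = 0.0434; background 1.81%), with array weights (-2.36, SE 0.49, adjusted p = 0.00762; background 3.17%), and with pairing and without those arrays together (-2.43, SE 0.32, adjusted p = 0.000506; background 2.26%). The combined setting, with pairing and without the arrays that stand apart, was chosen after seeing the data. Leaving out the arrays that stand apart keeps replicates 2 and 4 at 360 min. The replicate left out, 3, was closest to its own control, at -0.76 beside -2.20 and -2.85. In unpaired limma fits of all arrays it did not pass with median centring (-2.05, SE 0.58, adjusted p = 0.371). Nor did it pass with quantile normalization (-2.04, SE 0.59, adjusted p = 0.302). Leaving out 1 array of either group at a time in the unpaired fit gave -2.35 to -1.66 with adjusted p from 0.173 to 0.568.

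The second Grm7 probe set, D16817_at, differed less. Its controls read 1702, 1303 and 2292 and its 360 min arrays 729, 1369 and 906. Replicates 2 and 4 lay below all controls and replicate 3 among them. The difference was -0.78 (SE 0.41, adjusted p = 0.676 by limma). It was -1.16 (SE 0.24, adjusted p = 0.0199) with pairing and without the arrays that stand apart, which leaves replicates 2 and 4. At 360 min D16817_at passed only in that combined setting, which was chosen after seeing the data. The pair of Grm7 probe sets from this accession had a Pearson r of 0.72 across 24 group means, given as a description. The third, X96790_at, was below the filter on dim probe sets in the runs tested and is given as values only. It read 184 ± 108 (SD, n = 3) on the continuous controls and 149 ± 103 (SD, n = 3) at 360 min. Around the pulses it lay on the other side from D16817_at, with 71.4 ± 35.9 (SD, n = 4) on the controls and 248 ± 132, 221 ± 103 and 311 ± 113 (SD, n = 4 each) after 10, 30 and 60 min; the 60 min arrays lay above all controls and the other groups overlapped them.

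Arrays with a high GAPDH 3' to 5' ratio had low D16817_g_at signals of Grm7 in some runs and not in another. In the continuous experiment the ratio was 1.29, 1.75 and 1.45 on the controls and 1.64, 2.25 and 1.58 on the 360 min arrays. At 10 min it was 2.41, 2.27 and 1.61, and Grm7 read 314, 196 and 1318. In the crossed experiment control 2 had a ratio of 3.36 and a Grm7 signal of 75.4, beside 1001 and 1006 on the other controls, and NMDA replicate 2 had a ratio of 2.18 and a signal of 110. In the pulse experiment the arrays with ratios of 12.34 and 2.61 read 1384 and 1134, against 564 to 1198 on the controls. The arrays at 142 and 212 after 360 min had ratios of 1.58 and 1.64, inside the control range. The part of RNA quality in the Grm7 difference was not tested. The summed signal of the neuronal markers ran from 115799 to 136239 at 360 min and from 122962 to 146098 on the controls, and those of astrocytes from 37648 to 63686 and from 41569 to 62050; the part of cell make-up was not tested.

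After NMDA pulses it was D16817_at of Grm7 that was low. The control cultures read 1401, 1446, 1064 and 1678, and after the 30 min pulse cultures 1 to 4 read 603, 773, 678 and 929. No 30 min array reached the lowest control, and within cultures the differences were -1.14, -0.85, -0.60 and -0.81. The fit gave -0.85 (SE 0.38, adjusted p = 0.917). It passed with cultures paired and without the arrays that stand apart (-0.85, SE 0.22, adjusted p = 0.0361), beside 4.86% of all probe sets called there. It passed in no other fit of the 30 min pulse, and that combined setting was chosen after seeing the data. Replicate 1 of this group carries 60 min in 1 of its label fields, and without it the unpaired difference was -0.76 (SE 0.43).

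After the 60 min pulse Grm7 D16817_at read 675, 650 and 721 in cultures 1 to 3 and 1665 in culture 4, the array with a GAPDH ratio of 12.34; its repeat array read 1057 at a ratio of 1.88. The difference was -0.65 (SE 0.38, adjusted p = 0.889), and -0.98 (SE 0.26, adjusted p = 0.0475) with array weights, beside 3.62% of probe sets called in that fit. After the 10 min pulse cultures 1 and 2 read 710 and 789 and cultures 3 and 4 read 2076 and 1701. In the second pulse set the probe set read 1538 in the control and 686, 606 and 532 after the pulses. D16817_g_at did not follow in all cultures: after the 30 min pulse it read 522, 332, 736 and 861 against 863, 1198, 564 and 956, at -0.53 (SE 0.41, adjusted p = 0.999).

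Grm7 did not pass in the remaining experiments. In the crossed experiment D16817_at was at -0.07 (SE 0.29) after NMDA and 0.10 (SE 0.29) after nicotine. After washing, the NMDA value was 0.00 (SE 0.24) in the first run, 0.00 (SE 0.49) in the repeat run and 0.70 (SE 0.26, adjusted p = 0.133) in the repeat run without controls 3 and 4. D16817_g_at lay farther from its controls in these runs, with wide errors. In the crossed experiment it was at 0.93 (SE 0.80) after nicotine and 0.48 (SE 0.80) with both drugs, and at -0.07 (SE 0.34) and -0.52 (SE 0.34) without the arrays that stand apart. In the washed-out repeat run it was at -0.47, -0.97 and -0.94 (SE 0.65 each) after NMDA, nicotine and both. Without controls 3 and 4 these were 0.33, -0.18 and -0.15 (SE 0.68 each), and in the first run -0.29, 0.41 and 0.33 (SE 0.57 each). The sign of most of these values thus turned between fits. Nicotine for 15 min gave 0.13 (SE 0.15) at D16817_at and 0.49 (SE 0.24, adjusted p = 1) at D16817_g_at, and 4R for 18 h gave -0.19 (SE 0.22) and -0.20 (SE 0.35).

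Grm4, a presynaptic group III receptor, did not pass in any contrast. After NMDA pulses it was below the control of its culture on 9 of 12 arrays. The median over the 884 probe sets tested was 7 of 12. Control cultures 1 to 4 read 2274, 1804, 1934 and 1731, and after the 30 min pulse they read 1196, 865, 2234 and 1061. Cultures 1, 2 and 4 lay below all controls and culture 3 among them. The differences at 30 and 60 min were -0.59 and -0.41 (SE 0.42 each). With cultures paired and without the arrays that stand apart they were -0.59 (SE 0.24, adjusted p = 0.205 by limma) and -0.69 (SE 0.27, adjusted p = 0.202).

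The control means of Grm4 by run lay between 1353 and 1967, the narrowest spread of the family with a ratio of 1.45. The differences over 17 contrasts with a control ran from -0.59 (pulse, 30 min) to 0.74 (nicotine, washed out), and the smallest adjusted p by limma was 0.328. The value of 0.74 (SE 0.46) included control 3, which read 201 beside 1409 to 3077 on the other controls, and became 0.36 (SE 0.27) without controls 3 and 4. In the first run of the same samples it was 0.00 (SE 0.21).

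Grm6, known as the receptor of retinal ON bipolar cells, and Grm8, a group III autoreceptor, were dim. Grm6 read a median of 285 over the 30 control arrays and passed the filter on dim probe sets in 5 of the 7 runs tested. Its largest difference, 0.91 (SE 0.55, adjusted p = 0.789), was at 10 min of continuous NMDA, where the arrays ranged from 419 to 2286. Without the arrays that stand apart, which leaves the array at 419, it was 0.02 (SE 0.49) against all controls. Against the control of the same number that array was at 0.55. In the first washed-out run Grm6 was at 0.45 (SE 0.18, adjusted p = 0.204) after nicotine and at -0.49 (SE 0.18, adjusted p = 0.165) for both drugs against nicotine. Grm8 had a control median of 173 and was below the filter in all 7 runs, so its values are given without a test. It read 315 ± 57.8 (SD, n = 3) on the continuous controls and 230 ± 167 (SD, n = 3) after 60 min of NMDA, groups that overlapped.

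Among the probe sets that passed the filter, the baseline signal differed most between runs for Grm3. Its control mean was 7432 ± 716 (SD, n = 3) in the crossed experiment and 6913 ± 386 (SD, n = 3) in the nicotine 15 min experiment, which lay within each other's spread. It was 5213 ± 1559 (SD, n = 3) in the continuous and 3737 ± 838 (SD, n = 4) in the pulse experiment. Lower still were 4R for 18 h at 2988 ± 460 (SD, n = 3), 4R washed out at 2173 ± 592 (SD, n = 3) and the first washed-out run at 1447 ± 260 (SD, n = 5). The highest and lowest means differed by a ratio of 5.13. The astrocyte marker sum ran from 59303 to 66736 on the nicotine 15 min controls, from 63500 to 81790 on the 4R 18 h controls and from 30001 to 38138 in the first washed-out run; its part was not tested. Runs were scaled separately by the authors and hold different cultures, so these levels are described and not compared by a test. The nicotine 15 min controls also had high Fos signals (8657, 7264 and 11741), and the part of this in their levels was not tested.

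Other receptors had smaller baseline ranges. Grm5 was at 519 ± 196 (SD, n = 5) in the first washed-out run, 629 ± 199 (SD, n = 3) in the 4R washed-out run and 762 ± 128 (SD, n = 3) in the 4R 18 h run. It stood between 1293 and 1496 in the crossed, second pulse, pulse, nicotine 15 min and continuous experiments, whose arrays overlapped. In the washed-out repeat run it was 2121 ± 2040 (SD, n = 5), and the mean without controls 3 and 4 was 712. Grm7 D16817_at ran from 775 ± 221 (SD, n = 5) in the first washed-out run to 2123 ± 224 (SD, n = 3) in the nicotine 15 min run. Grm2 means lay between 473 and 748.

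**Figure D4:**
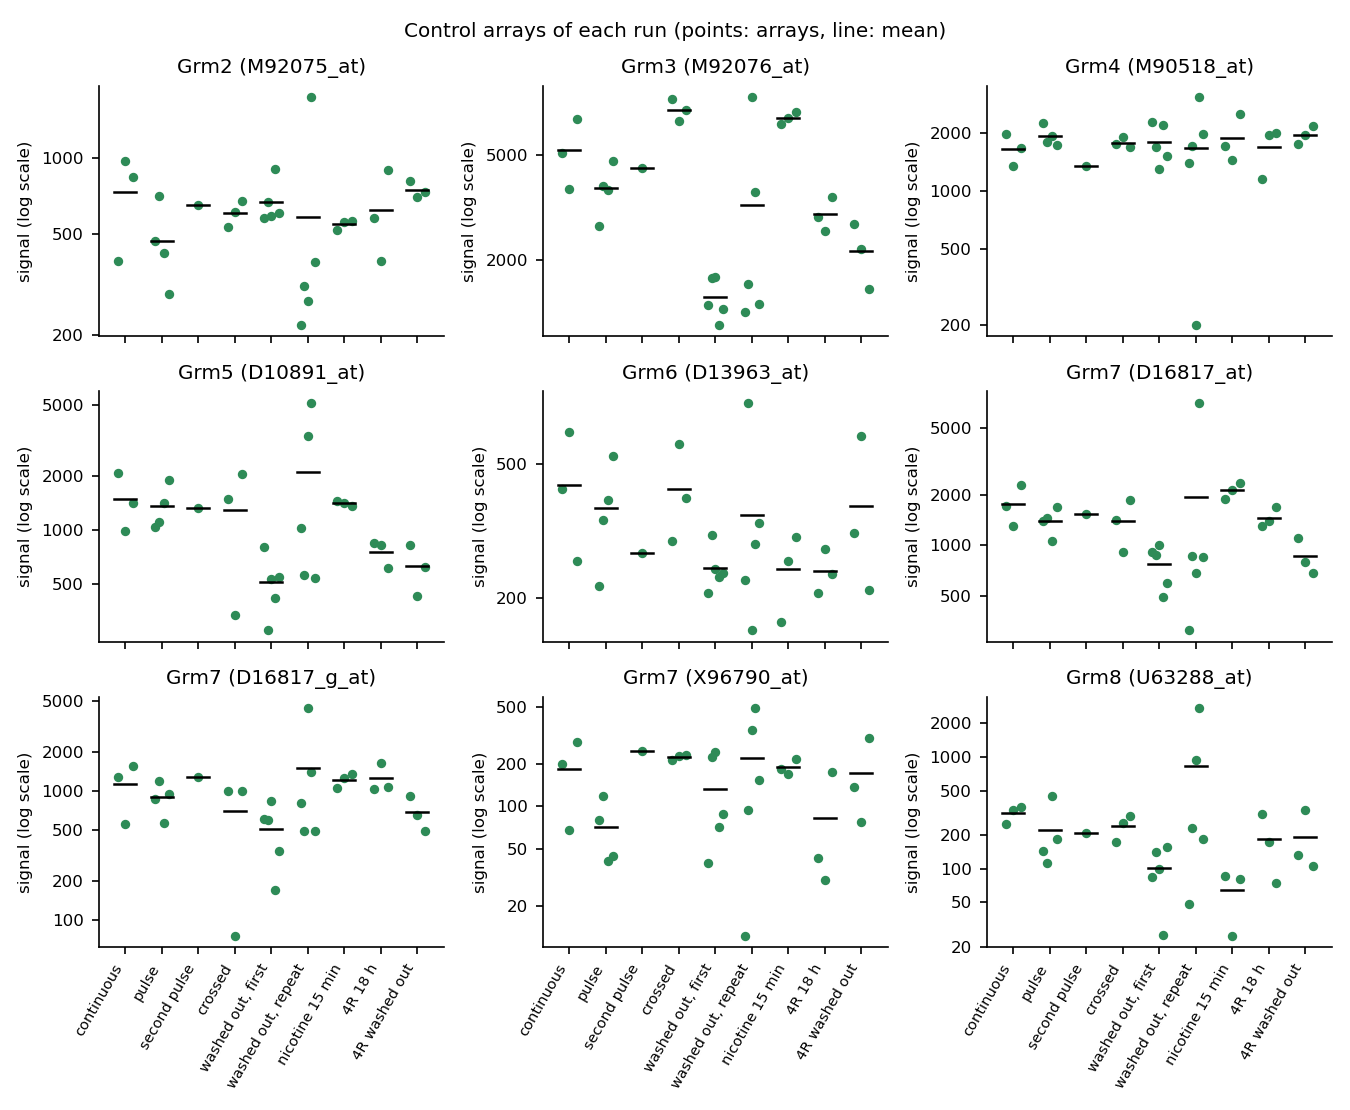
Signal (log axis) of the 9 probe sets on the control arrays of 9 runs, with a point for each of 30 arrays and a bar for the run mean. Grm3 run means range from 1447 to 7432 and Grm4 means from 1353 to 1967; a probe set's level is not comparable with another's.

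The washed-out samples give a measure of how well a signal repeats. Over 20 samples the median absolute log2 difference between first and repeat hybridization was 0.22 for Grm3, 0.25 for Grm4, 0.30 for Grm5, 0.35 for Grm7 D16817_at, 0.47 for Grm2 and 0.64 for Grm7 D16817_g_at. Without controls 3 and 4 the median for D16817_g_at was 0.51 and its largest difference 2.89, beside medians of 0.50 for Grm6 and 0.58 for Grm8. Repeat minus first, control 3 was at 2.22 for Grm3 and at -2.37 for Grm4, and control 4 was higher by 3.70 for Grm7 D16817_at and 3.44 for Grm5.

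**Figure D5:**
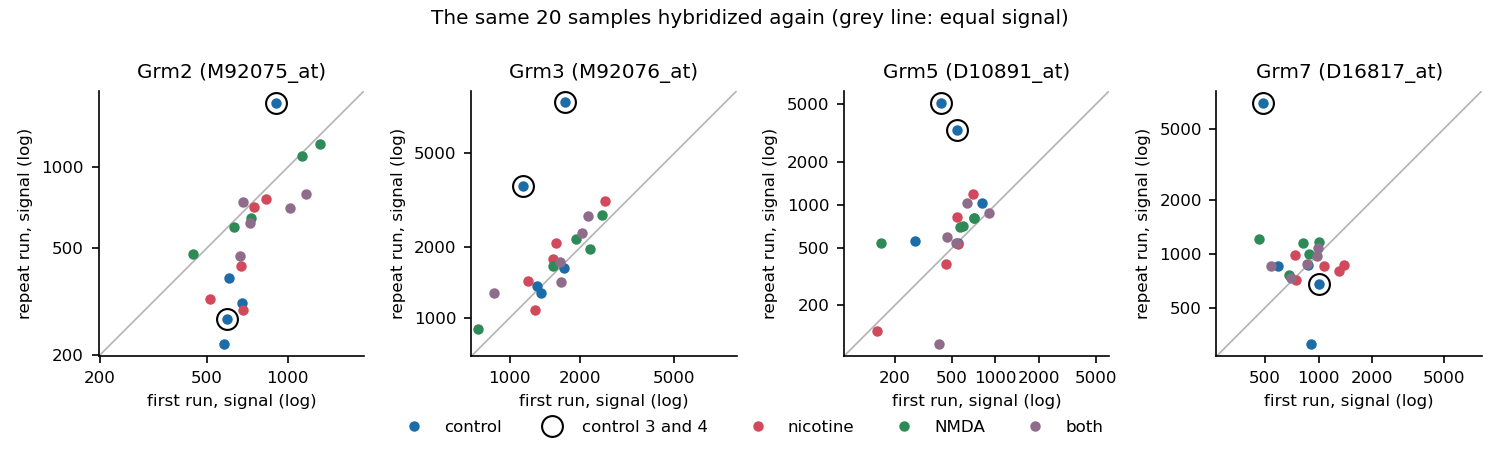
Signal of 4 probe sets in the repeat run against the first run of the same 20 washed-out samples (both axes log), with colours for the treatment, a grey line for equal signal and circles around controls 3 and 4. Most points lie near the line, and control 4 reads 7028 against 490 at Grm7 D16817_at.

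The signalling partners of these receptors were taken from a list of 66 genes, 19 of them on the array. For group I these were Plcb1, Itpr1, Prkca and Prkcb, which carry the phospholipase C signal. For groups II and III they were Gnao1, Prkar2a, Prkar2b and the G protein-gated potassium channels Kcnj3, Kcnj5, Kcnj6 and Kcnj9. Between 13 and 16 genes (25 to 28 probe sets) were tested in a contrast, and in all 23 contrasts 0 rose and 0 fell by limma with all arrays. Of 597 values of the list, 33 (5.53%) had an unadjusted p under 0.05. After 360 min of NMDA the lowest p belonged to Plcb1 (-0.42, SE 0.22, adjusted p = 0.652 by limma), and the list's median was -0.15 beside 0.01 over all probe sets. After the pulses Arrb2, which encodes a beta-arrestin, had the lowest p, at -0.75 (SE 0.29, adjusted p = 0.39) at 10 min.

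Calls in this list appeared in other fits of the washed-out samples, among the paired fit, the fit without arrays that stand apart and the first run. In the repeat run Gnb1 (AF022083_s_at), a G protein beta subunit, was at 1.61 (SE 0.41, adjusted p = 0.0472) with both drugs under the replicate block, beside 2.6% of probe sets called. Samples of that run share only a number and the fit keeps controls 3 and 4; without the block it was at 1.61 (SE 0.47, adjusted p = 0.109), and without those controls at 0.78 (SE 0.22, adjusted p = 0.054). Grk3 (M87855_at), a receptor kinase, was at 1.98 (SE 0.48, adjusted p = 0.0422) after NMDA without controls 3 and 4, beside 1.81%. In the first run Prkar2a was at 0.50 (SE 0.15, adjusted p = 0.0266) and Arrb2 at -0.46 (SE 0.15, adjusted p = 0.0415) after NMDA, where 13.9% of all probe sets were called.

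Across 24 group means, each centred on its run, 750 probe sets could be compared with the receptors by Pearson's r, as a description without a test. Grm3 was most like Hrk (0.74), a cell death gene, and then Grm7 D16817_at (0.65). Grm7 D16817_at was most like Grin3a (0.74), an NMDA receptor subunit, and Sncb (0.72). D16817_g_at was most like Hpcal4 (0.77) and Svop (0.73). Grm5 was most like Grip2 (0.73) and Pde4a (0.72), Grm2 like Pnoc (0.73) and Kcnj11 (0.72), and Grm4 like Ppp3ca (0.88) and L1cam (0.80). Group means of a run share its controls and arrays, and the washed-out repeat run with controls 3 and 4 was among them.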

How the data were processed

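Each array carried 1322 probe sets, of which 59 were controls and were left out. The authors deposited 1 intensity per probe set and array, on a linear scale judging from the values; the sources used here do not name the software. The trimmed mean (2% at each end) of every array lay between 2503 and 2513, so the authors had scaled the arrays to a common mean, and no further scaling was applied. No column was left unused. Genes were named from the platform annotation given (1137 probe sets with 1 gene, 8 with several, 118 with none). The members and lists were chosen with earlier results of these data known. Named were all probe sets of the 7 receptors, signalling genes that passed or had the lowest p, and the 2 probe sets of other genes most like each receptor.

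Each run was fitted separately. Probe sets with a mean under the 30th percentile of their run were left out, and log2 was taken after adding the 10th percentile of the run's values. Group differences came from limma 3.58.1 (lmFit, then eBayes with trend) under R 4.3.3; the script was tested on simulated data. The labels do not always say that replicates were separate cultures, so p-values measure the spread between these samples. The number of arrays limits precision. Array weights are limma's. Arrays stood apart when their median correlation lay over 4 median absolute deviations below the run's median. Same-numbered arrays of the continuous experiment deviated together (r at least 0.12 in all 45 pairs), so its numbers pair the samples; the pulse, crossed and 4R runs share culture labels. In the washed-out and 15 min nicotine runs the numbers alone are shared. The repeat array of the 10 min pulse, culture 3, matched that array to within 0.05 at all 1322 probe sets and was counted once. The labels do not say which washed-out run an oven failure affected; the repeat run gave the main values.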

Additional observations from a re-analysis of the deposited data

Results flagged for a closer look

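Among 72 combinations of group and probe set, 6 held an array far from the rest of its group; chance gives about 1 in 20. In the washed-out repeat run Grm2 read 1733 on control 4 against 220 to 389 on the others, Grm7 D16817_at read 7028 on control 4 against 313 to 864, and Grm7 D16817_g_at read 4408 on control 3 against 486 to 1400. In that run Grm7 X96790_at, below the filter, read 336 on NMDA replicate 2 against 206 to 225. In the pulse experiment Grm7 D16817_at read 1665 on culture 4 of the 60 min group against 650 to 721, and Grm8, below the filter, read 339 on culture 3 of the 30 min group against 119 to 156.

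In 2 of 162 pairs of effects all arrays of 1 group lay on the opposite side of the control mean from those of the other, and these differences were not tested. Grm2 was at 0.28 after 30 min and at -0.52 after 180 min of continuous NMDA. Against their own controls its replicates were at 1.12, -0.31 and 0.01 after 30 min. After 180 min they were at 0.50, -0.49 and -1.56, so this split did not hold within pairs. Grm7 X96790_at was at -0.13 after 4R for 18 h and at 0.76 after 4R was washed out. Against their own controls its arrays were at 0.39, -0.04 and -0.74 after 18 h. After washing they were at 1.39, 1.00 and -0.10, so here too the split did not hold within pairs.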

How the results depend on the processing

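With all arrays at equal weight and no pairing 0 receptor values passed in each experiment, so none could be lost or reversed as a call. Of 2881 values under other settings 7 newly passed, and 251 had the opposite sign to the value with all arrays, none of them past the threshold; examples are Grm5 with crossed nicotine and Grm3 after washed-out NMDA. In the continuous experiment 1 passed under the replicate block (Grm7 D16817_g_at, 360 min), 1 with array weights, 1 without arrays that stand apart, and 2 with both the block and those arrays left out. In the pulse experiment 1 passed with array weights and 1 with the block and without those arrays. The combined setting was chosen after seeing the data. The block changed no other call. Leaving out 1 array at a time gave 0 to 0 in both. The cause of these shifts was not tested. Dim signal limits Grm6, Grm8 and Grm7 X96790_at, and also Grm7 D16817_g_at at 360 min. Groups of 3 to 5 arrays limit all members.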
